A study of Mus musculus with 4 samples.

Results

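Bone marrow CD8+ T cells in which TCR sequencing recovered more than 1 chain of a kind were compared with cells in which it recovered exactly 1 TCR α chain (TRA) and 1 TCR β chain (TRB), within each expression cluster. Chains were counted as the entries listed per cell in the deposited TCR table. Of 11754 cells, 7961 had TCR chains, 722 of these had 2 TRB and 764 had 2 TRA with 1 TRB, which gives 1486 cells with an additional chain, against 5587 reference cells with 1 TRA and 1 TRB. Of the cells with 2 TRB, 574 had 1 TRA and 148 had 2 TRA. A further 789 cells had 1 TRB without a TRA, 99 had 1 TRA without a TRB, and no cell had more than 2 chains of a kind in the table.

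The cells came from 4 libraries, each holding the CD8+ T cells that were sorted at week 4 after stem cell transplantation (SCT) from pooled BM of 5 mice of 1 treatment group: isotype control with vehicle (cIg), αTIGIT with vehicle, isotype control with lenalidomide, and αTIGIT with lenalidomide. The female recipients, 8 to 12 weeks old, were on a C57BL/6 background and were WT or CRBN transgenic, carrying a modified cereblon on which lenalidomide can act, and the sources used here do not say which group had which genotype. All had received the myeloma Vk12653 2 weeks before transplantation and then BM with T cells from genetically matched donors, with antibody or isotype from the day of transplantation and lenalidomide or vehicle from day 14 to harvest at day 28. The deposited tables number the libraries 1 to 4 without naming the treatment, so libraries are given by number, treatments were not compared, and with 1 library per group no test was made between conditions. Libraries held 1725 to 4237 cells with median unique molecular identifier (UMI) counts of 7115 to 7669, where a UMI stands for 1 captured RNA molecule. Intervals in brackets are exact 95% Clopper-Pearson intervals over cells, which cover counting error only, since cells of a library are not replicates.

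A TCR is a heterodimer of an α and a β chain, each made by joining gene segments in the thymus, and the CDR3 is the stretch across the joint that differs most between clones. Once a TRB locus has been joined productively, the other allele is normally held back, which is called allelic exclusion, whereas the TRA loci of both chromosomes go on rearranging, so that mature T cells with a pair of in-frame TRA are not rare and those with a pair of TRB are. In droplet sequencing, a barcode can also hold chains of more than 1 cell or chains from free RNA. T cells that descend from 1 clone share their chains, which makes it possible to ask whether a pair of chains returns together in several cells.

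The pairs that returned in the most cells are shown first, since their sequences show how alike the chains of a pair were. A chain was defined by its V gene, J gene and CDR3 nucleotides. The CDR3 is printed 5′ to 3′, and capitals mark the stretch between the start and the end that both chains of a pair have in common. The largest TRB pair was met in 153 cells of library 1, with the same V gene in both chains, and its cells carried 1 of the 2 TRA given below it.
TRBV1/TRBJ1-4: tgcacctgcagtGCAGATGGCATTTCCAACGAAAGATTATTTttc
TRBV1/TRBJ2-1: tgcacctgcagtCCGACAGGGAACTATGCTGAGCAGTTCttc
TRAV12-2/TRAJ27, in 95 of these cells: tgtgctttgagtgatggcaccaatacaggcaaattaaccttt
TRAV16N/TRAJ49, in 58 of these cells: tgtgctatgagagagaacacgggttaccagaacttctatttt

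The next TRB pair, in 42 cells of library 4, shared V and J genes, and only the middle of the CDR3 differed. All 42 cells carried the same TRA, TRAV16N/TRAJ22.
TRBV16/TRBJ2-7, CDR3 of 42 bases: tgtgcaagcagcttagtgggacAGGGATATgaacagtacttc
TRBV16/TRBJ2-7, CDR3 of 45 bases: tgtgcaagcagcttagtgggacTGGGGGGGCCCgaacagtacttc

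The third pair, in 16 cells of library 2, joined different V genes and is shown as the largest pair of that kind. Its cells all carried TRAV9-4/TRAJ9.
TRBV1/TRBJ2-3: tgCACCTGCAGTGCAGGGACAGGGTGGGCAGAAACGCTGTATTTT
TRBV12-2+TRBV13-2/TRBJ1-4: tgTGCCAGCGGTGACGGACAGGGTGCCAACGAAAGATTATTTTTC

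The largest clone with 2 TRA, 76 cells of library 4 and 24 cells of library 1, is shown because it was met in more than 1 library.
TRAV12D-3/TRAJ11: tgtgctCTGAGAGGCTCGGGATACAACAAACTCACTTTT
TRAV13N-1/TRAJ9: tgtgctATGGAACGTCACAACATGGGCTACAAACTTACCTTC
TRBV5/TRBJ2-7, its TRB: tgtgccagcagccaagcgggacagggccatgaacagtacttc

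In the GENCODE M21 annotation of GRCm38 (mm10), Trbv1 lies at chr6:40891229-40891885 and Trbv16 at chr6:41151740-41152230, both on the plus strand and upstream of the constant genes Trbc1 at chr6:41538218-41539881 and Trbc2 at chr6:41546730-41548352. Trav12-2 lies at chr14:53616315-53616914, Trav16n at chr14:53351028-53351621 and Trav13n-1 at chr14:53162399-53162910, all on the plus strand. Transcripts with TRBJ1 or TRBJ2 segments usually continue into Trbc1 or Trbc2, respectively. Chains of a pair were otherwise distinct, as 1 of 722 TRB pairs (TRBV13-3 with TRBV13-1, both with TRBJ2-7) and 0 of 912 TRA pairs had an identical CDR3, and no further pair came within 2 bases.

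Cells with 2 TRB made up 9.18% (8.55 to 9.84) of the 7862 cells with a TRB. By cluster, the share was 5.42% (4.17 to 6.91) in naive cells (Tn), 6.73% (5.81 to 7.74) in central memory cells (Tcm), and it reached 7.75% (6.41 to 9.26) among transitory effector cells (transitory Teff). It was 12.7% in TIGIT+ Teff, 13.01% in GzmB+ Teff, 14.0% in TIM-3+ exhausted cells (TIM-3+ Tex), 14.6% in cycling cells and 16.02% (11.5 to 21.4) in GzmA+ Tex. The intervals of the first 3 clusters did not reach those of the last 5, whereas these 5 overlapped each other. That separation rested in part on library 1 and its largest pair, which gave 54 of the 145 cycling and 43 of the 80 TIM-3+ Tex cells with 2 TRB. Without library 1 the share was 9.45% (7.24 to 12.1) in cycling cells, 8.21% (4.76 to 12.98) in TIGIT+ Teff and 10.1% (6.99 to 14.1) in TIM-3+ Tex, and without the largest pair it was 9.70% (7.88 to 11.8) in cycling cells and 6.98% (4.96 to 9.49) in TIM-3+ Tex. In libraries 2 and 3, cycling cells carried 2 TRB at 5.80% and 4.62%, no more than Tn cells at 6.12% and 5.51%. GzmB+ Teff stayed above the intervals of Tn and Tcm both without library 1, at 12.9% (9.72 to 16.6), and without the largest pair, at 12.1% (9.35 to 15.3). GzmA+ Tex, the highest cluster above, was at 11.5% (6.98 to 17.6) without library 1, which overlapped the intervals of Tn and Tcm. Without the largest pair it was at 11.8% (7.87 to 16.8), just above them. Libraries 1 to 4 held 12.4%, 7.45%, 5.69% and 8.78%, and without the 153 cells of the largest pair the pooled share was 7.38%.

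Cells with 2 TRA made up 12.03% (11.2 to 12.9) of the 6351 cells with a TRA and exactly 1 TRB. The share was lowest in transitory Teff, at 8.45% (6.92 to 10.2), highest in TIM-3+ Tex, with 89 of 445 cells (16.4% to 24.02%), and 10.2% to 13.1% in the other 6 clusters. Libraries 1 to 4 held 10.4%, 8.29%, 14.95% and 14.2%. In TIM-3+ Tex, libraries 1 to 4 held 11.8%, 2.90%, 35.3% and 37.8%, and without library 4 the share was 11.1% (7.77 to 15.2), within the range of the other clusters. Of the 89 cells, 50 in library 4 and 14 in library 1 belonged to the clone printed above. Tn cells carried 2 TRA at 11.1% (9.14 to 13.3) against 2 TRB at 5.42%.

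Cells with 2 TRB held more RNA than reference cells in every cluster. The median was 9582 UMIs in 2 TRB cells, 6940 in 2 TRA cells and 6807 in reference cells. Each cell was then set against the median of the reference cells of its own cluster and library, on a log2 scale. The median difference of 2 TRB cells was 0.42, or 1.34-fold, and 72.7% (69.3 to 75.9) of them were above the reference median. Libraries 1 to 4 gave 0.39, 0.58, 0.33 and 0.48, so the direction was the same in each. An exact two-sided sign-flip test over these 4 within-library values gave p = 0.125, the smallest it can give with 4 libraries.

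The difference of 2 TRB cells was largest in TIGIT+ Teff, where the median was 5810 UMIs against 3535 in the reference and the log2 difference was 0.81. It was 0.59 in GzmB+ Teff, 0.57 in GzmA+ Tex, 0.47 in cycling cells, 0.46 in Tcm and 0.40 in transitory Teff, and TIM-3+ Tex had 0.34. It was smallest in Tn, at 0.14, where the median was 9154 UMIs against 8011. Cells with 2 TRA showed no such difference, with a median of -0.01 and 49.1% (45.5 to 52.7) above the reference. They were lower in TIM-3+ Tex, where the median was 4457 UMIs against 5919 and 13.5% (7.17 to 22.4) of 89 cells were above the reference, and 85 of these 89 cells belonged to recurring clones.

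**Figure D1:**
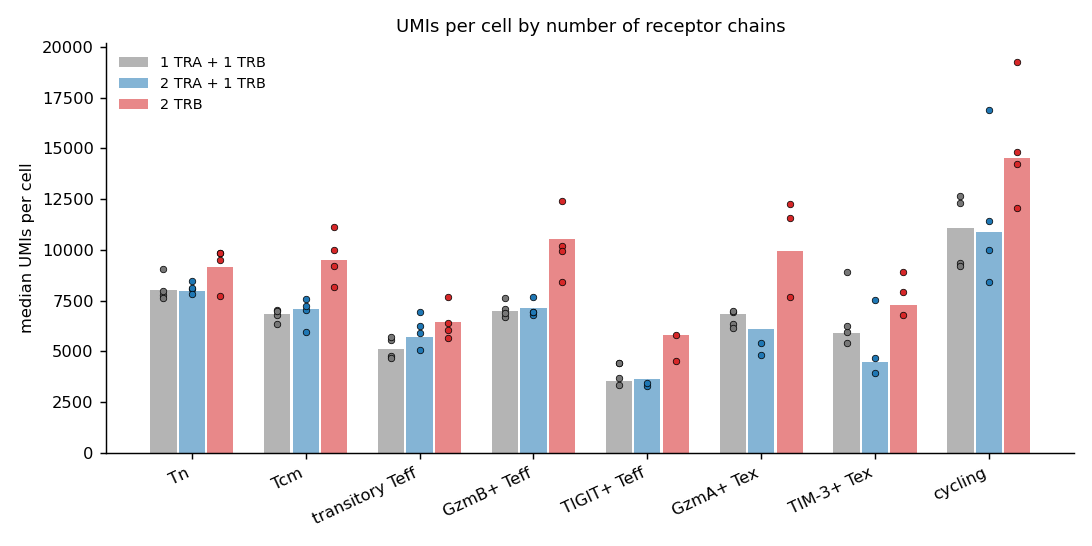
Median UMIs per cell (vertical axis) in the 8 clusters for reference cells, 2 TRA cells and 2 TRB cells. Bars show all libraries together and points show each library with at least 5 cells. The bar of 2 TRB cells is the tallest in each cluster, at 14520 UMIs in cycling cells and 5810 in TIGIT+ Teff.

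Genes per cell moved with the UMIs. Cells with 2 TRB had 1.20-fold more detected genes than the reference of their cluster and library, a log2 difference of 0.26, and 2 TRA cells had a difference of 0.01. After each cell was thinned at random to 2500 UMIs, the differences in detected genes were -0.01 for 2 TRB cells and 0.00 for 2 TRA cells, so the surplus of genes was not seen at equal depth. The share of 2 TRB cells differed by depth as well. When cells were ranked by UMIs within their cluster and cut into 3 equal parts, 5.40% (4.63 to 6.25) of the lowest, 8.75% (7.73 to 9.85) of the middle and 16.01% (14.4 to 17.7) of the highest part carried 2 TRB. For 2 TRA the shares were 12.2%, 11.1% and 13.2%, with overlapping intervals. TIM-3+ Tex differed, with 29.3% (23.8 to 35.2) in the lowest and 6.49% (3.16 to 11.6) in the middle part. Over all clusters, chains were recovered less often in cells with many UMIs, as 81.4%, 72.6% and 49.2% of the 3 parts had any TCR chain. Tn did not show this, at 82.6%, 87.5% and 86.4%, and Tcm held 82.4%, 83.1% and 71.5%. The fall was steep in TIM-3+ Tex, at 90.6%, 59.1% and 13.6%.

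A pair of TRB was either met in 1 cell or returned in several. Of 437 pairs of TRB, 402 were met in 1 cell of a library, and 35 recurred in 2 or more cells, 320 cells in all. The 5 largest pairs held 233 of these 320 cells (72.8%). Recurring pairs numbered 18 in library 1, 2 in library 2, 2 in library 3 and 13 in library 4. Among 520 combinations of a TRA pair with a TRB, 485 were met in 1 cell and 35 recurred, in 279 cells, with 59.9% of them in the 5 largest.

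**Figure D2:**
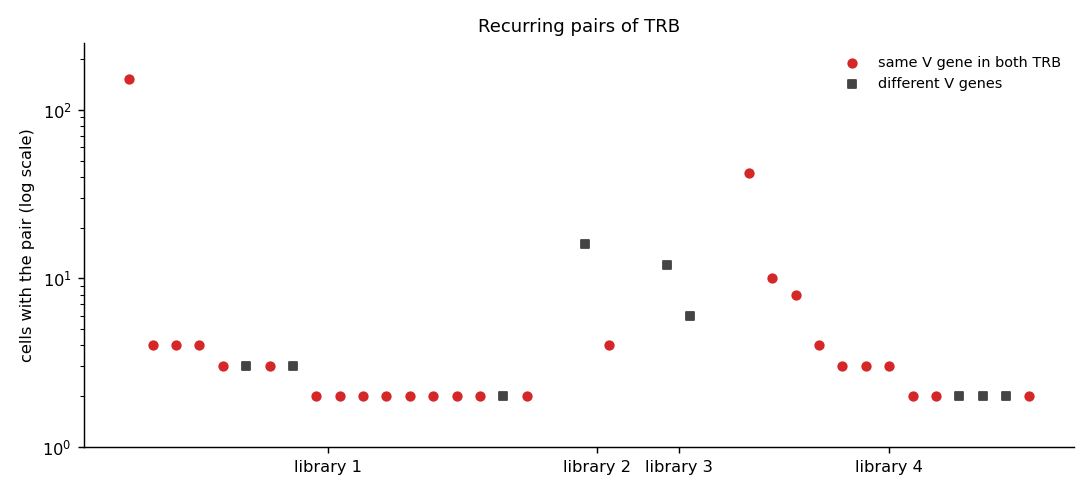
Cells that carried each of the 35 recurring TRB pairs (vertical axis, log scale), ordered by size within the 4 libraries. Circles mark pairs with the same V gene in both chains and squares pairs with different V genes. The largest pair, of 153 cells, is in library 1, and most pairs of libraries 1 and 4 have the same V gene.

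Recurring TRB pairs mostly had the same V gene in both chains, and pairs met in 1 cell mostly did not. The share of cells with the same V gene was 85.0% (80.6 to 88.7) for recurring pairs and 15.7% (12.3 to 19.6) for pairs met in 1 cell. Any 2 reference cells of a library, drawn as a pair, had the same TRBV gene in 6.27% to 7.20% of cases. Counted by pairs, 26 of the 35 recurring pairs had the same V gene, and 6 of these 26 also had the same J gene. These pairs were not independent, since many of the 26 had a chain in common. A TRBV16/TRBJ2-7 chain of library 1 and a TRBV1/TRBJ2-1 chain of library 4, both described below, each entered several of them. The same-V share was not alike in all libraries, since same-V pairs were 15 of 18 in library 1 and 10 of 13 in library 4, but 1 of 2 in library 2 and 0 of 2 in library 3.

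Same-V pairs met in 1 cell followed the same split, with 24.5% (16.8 to 33.7) of cells in library 1 and 20.3% (14.1 to 27.7) in library 4, but 5.43% (1.79 to 12.2) in library 2 and 1.92% (0.049 to 10.3) in library 3. The intervals of libraries 2 and 3 hold the 6.27% to 7.20% of any pair of reference cells, and those of libraries 1 and 4 lie above it. In 2 TRA cells, the same TRAV gene in both TRA was rare, at 1.83% (1.01 to 3.06), and any pair of reference cells reached 2.85% or more.

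The higher UMIs were found mainly in cells with a TRB pair met in 1 cell, and in these mainly where the V genes differed. Their log2 difference was 0.63, or 1.55-fold, with 81.1% (76.9 to 84.8) above the reference, and libraries 1 to 4 gave 0.63, 0.75, 0.39 and 0.65. With different V genes it was 0.73 over 339 cells, with 84.4% (80.1 to 88.1) above, and with the same V gene 0.30 over 63 cells, with 63.5% (50.4 to 75.3) above. The intervals of these shares do not overlap.

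Recurring pairs were closer to the reference, at 0.18 over 320 cells. Libraries 1 to 4 gave 0.29, -0.25, 0.15 and 0.09, so the sign was not the same in each, and without the largest pair the value was 0.04. Recurring pairs with the same V gene had 0.26 over 272 cells, of which 153 were of the largest pair, and those with different V genes had -0.07 over 48 cells, with 45.8% (31.4 to 60.8) above the reference. Cells with 2 TRA had 0.05 when their combination was met in 1 cell and -0.18 when it recurred.

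**Figure D3:**
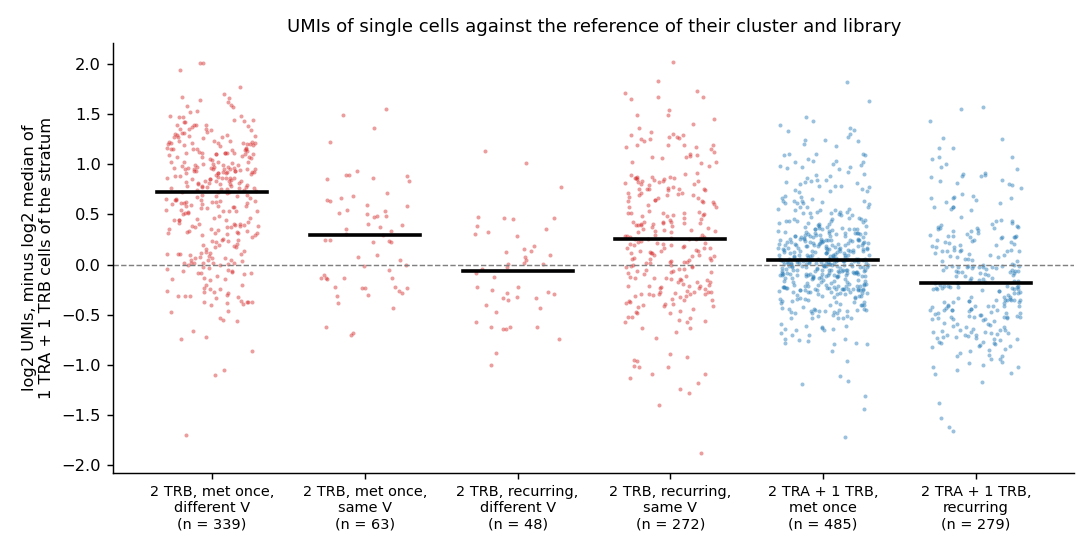
Log2 UMIs of single cells minus the log2 median of the reference cells of the same cluster and library (vertical axis), for 2 TRB cells by recurrence and V genes and for 2 TRA cells by recurrence. Each point is a cell and black lines are medians. The line is at 0.73 for 2 TRB pairs met in 1 cell with different V genes and at -0.07 for recurring pairs with different V genes.

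The number of TRA moved with the UMIs of 2 TRB cells as well. The 148 cells with 2 TRB and 2 TRA had a log2 difference of 0.92, or 1.90-fold, and 91.2% (85.4 to 95.2) were above the reference, against 0.30 and 67.9% (64.0 to 71.7) for the 574 cells with 2 TRB and 1 TRA. Of the 148 cells, 139 had a TRB pair met in 1 cell. Cells with 1 TRB and no TRA lay on the other side, at -0.18. Cells without any TCR chain, which enter no comparison, had 0.69.

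Each TRB of a 2 TRB cell was then looked for in the reference cells of the same library. Among all 722 cells, 39.1% (35.5 to 42.7) had neither TRB there, 23.7% (20.6 to 27.0) had 1, and 37.3% (33.7 to 40.9) had both. Both were found for 59.0%, 4.46%, 4.29% and 34.3% in libraries 1 to 4, for 21.2% without library 1 and for 20.4% without the largest pair. The pattern differed between kinds of pair. Both were found for 78.4% (73.5 to 82.8) of cells with recurring pairs and for 4.48% (2.67 to 6.98) of cells with pairs met in 1 cell. All 251 recurring cells with both chains found had same-V pairs.

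Split by V gene, the same-V kinds stood apart from each other and from the different-V kinds, whose intervals overlapped. In recurring pairs with the same V gene, 92.3% (88.4 to 95.2) of cells had both chains in reference cells. In recurring pairs with different V genes, 66.7% (51.6 to 79.6) had neither and 0 of 48 had both, which allows a share of up to 7.40% at the upper end of the interval. In same-V pairs met in 1 cell, 76.2% (63.8 to 86.0) had exactly 1 of the chains in reference cells. In different-V pairs met in 1 cell, 69.9% (64.7 to 74.7) had neither. By pairs, both chains were found for 16 of the 26 recurring same-V pairs, and none for 8 of the 9 recurring pairs with different V genes.

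**Figure D4:**
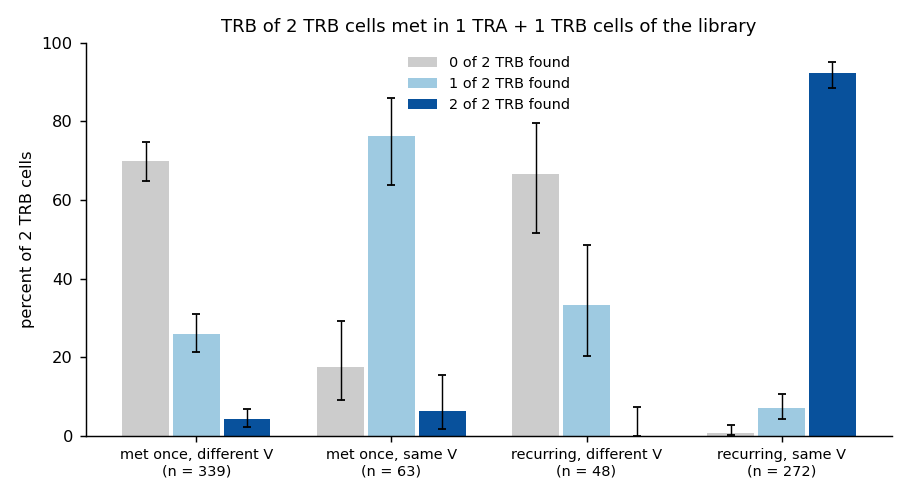
Percent of 2 TRB cells (vertical axis) with 0, 1 or 2 of their TRB found in reference cells of the same library, for 4 kinds of TRB pair. Error bars are exact 95% intervals over cells. Both chains are found for 92.3% of recurring same-V cells, and neither for 69.9% of different-V cells met in 1 cell.

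The TRA of the reference cells differed between the chains of a pair. In 248 of the 320 cells with recurring pairs (77.5%), 1 TRB was met in reference cells with the TRA of the 2 TRB cell and the other TRB was met there only with another TRA. Of these 248 cells, 153 were of the largest pair, and cells of a clone are not independent. The clusters of the reference cells were also compared. For recurring pairs, 86.4% of the 537 chains found were met in a reference cell of the same cluster as the 2 TRB cell, and for pairs met in 1 cell 40.1% of 172. Among the 18 cells met in 1 cell with both chains found, the chains lay in clusters without overlap for 10, and among the 251 recurring cells for 0. A single reference cell in the cluster was enough for a match. Chains met in many reference cells, such as the 86 and 171 of the largest pair, therefore matched more easily. The number of reference cells per chain was not matched, so these values cannot compare the 2 kinds of pair.

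The largest pair shows the TRB and TRA of such cells in detail. Its TRBV1/TRBJ1-4 chain was met alone in 86 reference cells with TRAV12-2/TRAJ27, its TRBV1/TRBJ2-1 chain alone in 171 with TRAV16N/TRAJ49, and both TRB together in 153 cells that carried 1 of these TRA, 95 the first and 58 the other. No cell carried both TRA. Both chains together thus took 37.3% (32.6 to 42.2) of the cells with either chain in these 3 groups. In library 2, the chains were met in 12 and 20 reference cells, and never together.

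The expression library gave a separate view of the same cells. A UMI of Trav12-2 was found in 95 of the 95 2 TRB cells called with TRAV12-2 and in 5.17% (1.08 to 14.4) of the 58 called with TRAV16N. A UMI of Trav16n was found in 2.11% (0.26 to 7.40) of the first and 93.1% (83.3 to 98.1) of the others. In the other reference cells of the library Trav12-2 was found in 8.09% (6.75 to 9.59). The expression library therefore showed, in nearly all cells, the single TRA that the TCR library had called.

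These 2 TRB cells held more UMIs than the cells that shared 1 of their chains. With TRAV12-2, the median was 6954 UMIs in 2 TRB cells and 5298 in reference cells, with log2 differences to the reference of their cluster and library of 0.25 and -0.13. With TRAV16N, it was 9973 and 6077, with 0.42 and 0.04. They lay in the same clusters, mainly cycling, TIM-3+ Tex and transitory Teff, and none was in Tn or Tcm. RNA of the constant genes was similar between them. Trbc1, which serves TRBJ1 joints, was at 655 CPM (a gene's part of all UMIs summed over the cells) in 2 TRB cells with TRAV12-2 and at 619 CPM in reference cells of that clone, and it was at 376 and 338 CPM with TRAV16N. In the other reference cells of the library it was at 122 CPM. Reference cells whose only called TRB was TRBJ2-1, which joins to Trbc2, thus had more Trbc1 than other reference cells. They also had more Trbc2, at 375 against 270 CPM, and more Trac, at 439 against 271 CPM. The clusters were not matched here. Of the 1484 other reference cells, 175 were in Tn and 579 in Tcm, where no cell of the clone lay. Trbc1 and Trbc2 are near-identical, and how reads of either were assigned was not tested.

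The next pairs differed in balance. The TRBV16/TRBJ2-7 pair of library 4 was met together in 42 cells, and its chains were met in 140 and 4 reference cells. The third, TRBV1/TRBJ2-3 with a TRBV12-2+TRBV13-2 chain, was met together in 16 cells, and in 2 and 0 reference cells, so 88.9% (65.3 to 98.6) of its cells carried both TRB. Likewise the fourth pair, TRBV20/TRBJ1-4 with TRBV29/TRBJ1-1 in library 3, was met in 12 cells and in no reference cell, and 11 of its 12 cells had TRAV8D-1/TRAJ49 as the only TRA. The log2 UMI difference was -0.31 for the third pair, with a median of 3913 UMIs, and -0.17 for the fourth, with 5721. Over all 9 recurring different-V pairs the values ran from -0.62 to 0.29, and 5 were below 0. The seventh pair, TRBV12-2/TRBJ2-7 with TRBV26/TRBJ2-2 in library 3, differed from these in its TRA, since its 6 cells carried 6 different sets of TRA, with a log2 difference of 0.27.

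Some TRB came with many partners. A TRBV1/TRBJ2-1 chain of library 4 was met in 43 reference cells, all with 1 TRA, and in 30 2 TRB cells with 19 other TRB, of which 17 had TRBV1 too. A TRBV16/TRBJ2-7 chain of library 1 was met in 68 reference cells with 1 TRA and in 20 2 TRB cells with 9 other TRB, all of TRBV16. The sequences of both chains are given because no other TRB came with as many partners.
TRBV1/TRBJ2-1, library 4: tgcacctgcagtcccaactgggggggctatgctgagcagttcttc
TRBV16/TRBJ2-7, library 1: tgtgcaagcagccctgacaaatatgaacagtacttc

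Clonotype sharing was read chain by chain, since a clonotype string with 2 TRB cannot equal one with 1. A TRB of the cell was met in another cell of the library for 68.7% (65.2 to 72.1) of 2 TRB cells, 40.7% (37.2 to 44.3) of 2 TRA cells and 44.7% (43.4 to 46.0) of reference cells. Reference cells weighted to the clusters and libraries of the 2 TRB cells reached 55.3%, and weighted to those of the 2 TRA cells 45.2%. A 2 TRB cell has more chains that can match, and with the first listed TRB alone its share was 60.2%. In the clusters with few expanded clones the pooled gap was wide. In Tcm a TRB was shared by 43.9% (36.5 to 51.5) of 2 TRB cells and 12.9% (11.4 to 14.4) of reference cells, and in Tn by 29.5% (18.5 to 42.6) and 6.30% (4.74 to 8.17). The gap was not alike in all pairs and libraries. In Tn a TRB was shared by 11 of 11 same-V cells and 14.0% (5.82 to 26.7) of 50 different-V cells. Libraries 1 to 4 held 6 of 9, 4 of 18, 0 of 15 and 8 of 19 Tn cells with 2 TRB. In Tcm, 25 cells had recurring pairs, which share by definition, and pairs met in 1 cell were at 34.8% (27.4 to 42.9). Library 2 held 17.9% (6.06 to 36.9) there, against 10.6%. In TIM-3+ Tex a TRB was shared by 76 of 80 2 TRB cells and 96.9% of reference cells.

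By pairs met in 1 cell, 43.8% (38.9 to 48.8) of 2 TRB cells had a TRB in another cell, against 38.0% for weighted reference cells. With the same V gene this was 90.5% (80.4 to 96.4) of 63 cells and with different V genes 35.1% (30.0 to 40.4) of 339. For whole clonotypes as deposited, 43.1% (39.4 to 46.8) of 2 TRB cells, 35.9% (32.5 to 39.4) of 2 TRA cells and 40.6% (39.3 to 41.9) of reference cells shared theirs with another cell. These pooled shares mix clusters. Within TIM-3+ Tex, 82.5% of 2 TRB cells shared their clonotype against 95.8% of reference cells, and within cycling cells 64.1% against 78.0%. Cells with 2 TRB were also lower in Tn and in the other Teff and Tex clusters. Only in Tcm were they higher, at 11.7% against 8.14%.

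Cells with 2 TRA were followed in the same way, with their TRB as the link to reference cells. For the 35 recurring combinations, the TRB was met in reference cells with 1 of the 2 TRA for 67.7% of their 279 cells, for 9.32% with each of them in different cells, and for 20.8% not at all. When the combination was met in 1 cell, the TRB was not met in reference cells for 95.9% of 485 cells. The TRAV12D-3/TRAJ11 and TRAV13N-1/TRAJ9 clone had 76 cells in library 4, of which 50 were in TIM-3+ Tex, and 24 in library 1, of which 14 were in TIM-3+ Tex. Reference cells with its TRB and 1 of its TRA numbered 33 and 7, all with TRAV13N-1. Its cells held few UMIs, with medians of 3887 and 4696 and log2 differences of -0.53 and -0.33. The next clone, TRAV7D-5/TRAJ38 and TRAV9-2/TRAJ30 with TRBV16/TRBJ2-7, had 29 cells in library 1, beside 68 reference cells with the same TRB and TRAV7D-5/TRAJ38. Its TRB is the chain with 9 partners printed above.

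Clonotypes with an additional chain were also met in more than 1 library, which pooled different mice. There were 7 of these, 6 with 2 TRA and 1 with 2 TRB. The clone with TRBV5/TRBJ2-7 had 24, 1, 0 and 76 cells in libraries 1 to 4 and the clone with TRBV16/TRBJ2-7 had 29, 5, 0 and 0. The 2 TRB clonotype, TRBV16/TRBJ2-1 and TRBV26/TRBJ1-6 with TRAV6N-6/TRAJ9, had 3 cells in library 1 and 1 in library 2. None of these cells shared a barcode with a cell of the same clonotype in another library. Over all cells, 56 barcode sequences were met in more than 1 library, in 112 cells of which 12 had an additional chain, and no such barcode joined cells with the same TRB.

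RNA of the V genes in the expression library matched the called chains where the V genes differed. A Trbv gene was counted with at least 2 UMIs, and 2 or more Trbv genes were found in 14.9% (14.0 to 15.9) of reference cells. They were found in 90.3% (86.6 to 93.2) of cells with a different-V pair met in 1 cell and in 93.8% (82.8 to 98.7) of those with a recurring different-V pair. Same-V pairs can show only 1 gene, and were at 20.6% (11.5 to 32.7) and 16.5% (12.3 to 21.5). Since deeper cells show more genes, cells were also thinned to 2500 UMIs. The shares then were 3.36% (2.91 to 3.87) of reference cells, 33.3% (28.3 to 38.6) of different-V cells met in 1 cell and 36 of 48 recurring different-V cells (60.4% to 86.4%). At equal depth the last interval lay above the other, but its 48 cells came from 9 pairs, the largest of 16 cells, and cells of a clone are not independent. The kinds were also not matched by cluster. Of the 339 different-V cells met in 1 cell, 50 were in Tn and 125 in Tcm, and no recurring pair was met in Tn.

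The V genes found were those called. Both called Trbv genes had a UMI in 83.1% (78.2 to 87.3) of 278 different-V cells met in 1 cell whose V names matched an annotated gene, and in 93.8% (79.2 to 99.2) of 32 recurring ones. Thinned to 2500 UMIs, these were 59.4% (53.3 to 65.2) and 87.5% (71.01 to 96.5). The same V genes had a UMI in 2.98% and 3.25% of reference cells called with another V gene. For 2 TRA cells, both called Trav genes had a UMI in 77.8% (72.1 to 82.8) of 252 cells met in 1 cell and in 91.1% (80.4 to 97.0) of 56 recurring ones, against 0.96% and 1.16% in reference cells called with another V gene, and after thinning these shares were 40.9% (34.7 to 47.2) and 60.7% (46.8 to 73.5). Of all chains, 93.5% of TRB and 77.6% of TRA had a V name that matched, and many Trav genes exist in near-identical copies, so counts of Trav genes are less certain.

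**Figure D5:**
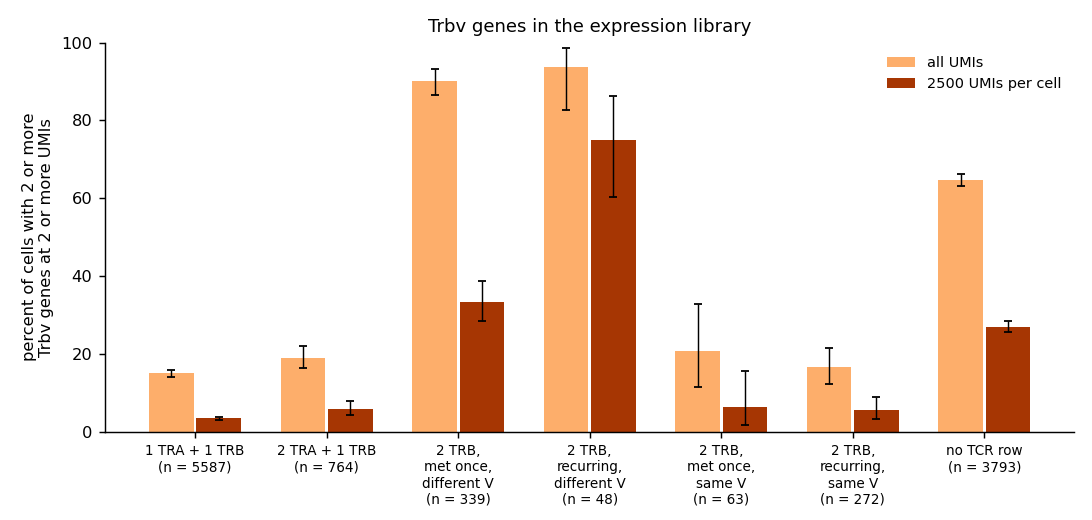
Percent of cells with 2 or more Trbv genes at 2 or more UMIs each in the expression library (vertical axis), with all UMIs and with 2500 UMIs per cell. Error bars are exact 95% intervals over cells. Cells with different-V pairs reach 90.3% and 93.8% with all UMIs, and cells without a TCR chain 64.8%.

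The authors retained only cells with Cd3e/g and Cd8a expression, so shares of CD8+ T cell markers were set in advance and cannot tell the classes apart. Markers of CD8+ T cells (Cd3e, Cd3g, Cd8a and Cd8b1) had a UMI in 99.6% of 2 TRB cells, 99.9% of 2 TRA cells and 99.7% of reference cells after thinning. Markers of CD4+ T cells (Cd4, Foxp3 and Cd40lg) had one in 0.28%, 0.65% and 0.18%. Of the 8 macrophage markers, none of which was at 0, at least 1 had a UMI in 10.4% (8.26 to 12.8) of 2 TRB cells, against 8.82% of weighted reference cells, with summed levels of 22.9 to 167 CPM over libraries in 2 TRB cells and 71.5 to 82.0 CPM in reference cells. Of the 8 plasma cell or B cell markers, 5 were at 0 in 2 TRB cells, and at least 1 had a UMI in 16.5% (13.8 to 19.4) against 14.7%, with 51.4 to 92.9 CPM and 59.3 to 67.6 CPM. Before thinning, the 2 lists had a UMI in 18.8% and 42.7% of 2 TRB cells, against 14.2% and 33.6% of weighted reference cells. When cells with any such unthinned UMI were left out of both classes, 351 of the 722 2 TRB cells remained and the log2 UMI difference was 0.30. Since deeper cells show more genes, this filter was not independent of depth. After thinning, neutrophil markers had a UMI in 1.25% of 2 TRB, 1.83% of 2 TRA and 1.13% of reference cells. Erythroid markers had one in 1.11%, 1.70% and 1.503%, and NK cell markers, which CD8+ memory T cells share, in 26.3%, 28.9% and 27.4%. For NK cell markers, reference cells weighted to the 2 TRB cells were at 23.6%. By kind of pair, 2 TRB cells were at 38.1% against 31.6% of weighted reference cells for pairs met in 1 cell. For recurring pairs they were at 11.6% against 13.7%.

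Beyond their total, the RNA of 2 TRB cells was close to that of the reference. Genes were compared by CPM of summed UMIs, with reference cells weighted to the same clusters and libraries, 10 CPM added to both sides, and a gene called at 1.5-fold or more with the same sign in all 4 libraries. No test over libraries was run on the genes. For 2 TRB cells, 2 genes were higher (0.0684% of 2924 genes) and 1 was lower (0.0342%). The higher genes were Trbv1, at 748 against 322 CPM and a log2 ratio of 1.19 (1.29, 0.92, 0.36 and 1.05 in libraries 1 to 4), and Trbv20, at 59.3 against 18.4 CPM and 1.29 (0.04, 1.89, 3.16 and 1.47), and both are V genes of called chains. In pairs met in 1 cell, Trbv1 had 0.08 and was not called, and both chains of the largest recurring pair are of TRBV1. The lower gene was Cd74, the invariant chain of MHC class II and a macrophage and B cell marker, at 25.7 against 51.3 CPM and -0.78 (-0.84, -0.77, -1.13 and -0.64). The library values of Trbv20 spanned the widest range of the 3. The lower Cd74 was not shared by the marker lists over all libraries. After thinning, a macrophage marker had a UMI in 10.4% of 2 TRB cells, against 8.82% of weighted reference cells. A plasma cell or B cell marker had one in 16.5% against 14.7%. Before thinning, the macrophage shares were 18.8% and 14.2%. By library, the summed macrophage level varied widely in 2 TRB cells, from 22.9 to 167 CPM after thinning.

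For 2 TRA cells, 1 gene was higher (0.0354% of 2827 genes) and 2 were lower (0.0707%). The higher gene was Trav13n-1, the V gene of the clone above, at 96.6 against 16.1 CPM and 2.03, and the lower genes were Trbv26, at -1.94, and Trbv15, at -1.23. All 3 are TCR genes, and Trav13n-1 was at 2.54 and 2.10 in libraries 1 and 4, which hold the clone, and at 0.44 and 0.45 in libraries 2 and 3.

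The gene lists showed few differences for the whole classes. Of 15 receptor and co-receptor genes, 14 were tested and none was called in 2 TRB or 2 TRA cells, with medians of 0.03 and 0.00. The β constant gene Trbc1 had 0.51 in 2 TRB cells, with library values of 0.10 to 0.73, and Trac, the α constant gene, had 0.23 in 2 TRA cells, with -0.07 to 0.37, and neither was called. In 2 TRB cells, Cd3e, a signaling subunit of the receptor, had 0.03 and the co-receptor Cd8a had 0.02. Of the 4 recombination and pre-receptor genes (Rag1, Rag2, Dntt and Ptcra) none was abundant enough to be tested.

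The remaining lists also had no called gene in either class. Medians in 2 TRB cells were -0.11 for 8 cell cycle genes, -0.12 for 12 effector and exhausted genes and -0.01 for 6 memory genes with NK receptors, against -0.01 for all genes. In 2 TRA cells they were -0.12 over 7, 0.17 over 12 and 0.01 over 7 genes, against 0.00 for all genes. Of the receptor-induced genes (Nr4a1, Nr4a3, Egr1, Egr2, Cd69 and Irf4), 1 was tested, at -0.02 and -0.06.

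In 2 TRB cells with a pair met in 1 cell, 6 of 12 effector and exhausted genes were lower than in the reference. Of 2795 genes, 1 was higher (0.0358%) and 10 were lower (0.358%). The median of the 12 genes was -0.58, against -0.02 over all genes, and 1 of them was above 0. In recurring pairs the median of the same list was 0.17, with 8 of 12 genes above 0. Ccl3 was at 181 against 416 CPM and -1.16 (-0.98, -1.60, -2.23 and -0.63 in libraries 1 to 4), and Ccl4 at 346 against 670 CPM and -0.93, both chemokines of activated T cells. Pdcd1, encoding PD-1, had -0.77, Gzmk -0.72, Lag3 -0.64 and Tigit -0.59. The cell cycle genes had a median of -0.30 and none was called. Outside the lists, the lower genes were Cd74 at -0.91, Trav12-2 at -0.73, Lgals3 at -0.68 and Hist1h1e at -0.61, and the higher gene was Trbv20 at 1.51.

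The direction of this list turned when another reference was used, which also left out some cells. Reference cells often shared their TRB in effector clusters, at 78.2% in TIGIT+ Teff and 96.9% in TIM-3+ Tex but 33.9% in GzmB+ Teff, while a pair met in 1 cell by definition has no other cell with that pair. Against reference cells whose TRB was in no other cell of the library, the median of the 12 effector and exhausted genes was 0.43, Pdcd1 had 0.83, Ccl3 had 0.48 and Tigit, at 0.66, was called higher. Strata with fewer than 5 such reference cells dropped out, which removed TIM-3+ Tex in all libraries and TIGIT+ Teff in libraries 2 and 4. The 2 TRB cells compared thus changed as well, and Ccl3 stood at 135 CPM in them, lower than given above. The parts of the reference and of the cells left out in this turn were not tested. Of 2750 genes, 5 were higher and 2 were lower, and only Cd74, at -1.29, and Trbv20, at 1.14, were called the same way against both references. For UMIs the choice did not change the direction, since 2 TRB cells of all pairs in the strata left had 0.34 against this reference.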

How the data were processed

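The authors made 5′ droplet libraries of sorted CD8+ T cells, processed them with cellranger (Cell Ranger 7.00 and mm10 per the submitters' processing notes), evened the libraries' read depth with its aggregate step, and retained cells of over 2500 and under 25000 UMIs, under 15% mitochondrial RNA, and with Cd3e/g and Cd8a expression, so cells above 25000 UMIs are not represented. The deposited expression table and the UMI totals are raw UMI counts, and the deposited mitochondrial share is a fraction between 0 and 1. Clusters are the authors' Leiden clusters from Monocle3 under their deposited names. TCR chains were reconstructed by the authors with cellranger vdj and combined with scRepertoire, with filters and versions not given in the sources used here. No doublet caller is named in these sources and none was run. Of 8965 TCR entries, 1004 had no cell in the cell table.

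The members, gene lists and tests were chosen with earlier results of these data known. No column of an unmatched sample was used (0). Each cell was compared with reference cells of its cluster and library, where at least 5 were present. Genes needed 50 CPM in either class. Thinning used seed 11. The genes named are the members of the lists, the 5 highest and 5 lowest called per class, V genes of counted chains and the 3 largest recurring pairs per class; the fourth and seventh pair, the split by recurrence and V gene, the chains with many partners, Lgals3 and Hist1h1e were named after their values were seen. Lists are receptor and co-receptor, recombination and pre-receptor, receptor-induced, cell cycle, effector and exhausted, memory with NK receptors, and markers of macrophages, plasma or B cells, neutrophils, erythroid, NK, CD4+ and CD8+ T cells. Alternatives left out each library, merged chains within 1 base, changed the reference, chain definition, search range, thinning depth (4000 UMIs), CPM added (50) or needed (20), left out marker-positive cells or TCR genes, and kept 1 cell per clonotype. Steps were tested on simulated data. Calculations used Python 3.11.15, matplotlib 3.10.9, numpy 2.4.6, pandas 2.3.3 and scipy 1.17.1. Gene symbols came from GENCODE M21 (17534 of 17561 genes). The list of naive cell genes is not reported here.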

Additional observations from a re-analysis of the deposited data

Results flagged for a closer look

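Cells without any TCR chain in the TCR table, which enter no comparison above, showed RNA of several Trbv genes more often than reference cells. After thinning to 2500 UMIs, 27.0% (25.6 to 28.4) of 3793 such cells had 2 or more Trbv genes at 2 or more UMIs each, against 3.36% (2.91 to 3.87) of reference cells and 29.1% (24.7 to 33.8) of 2 TRB cells with a pair met in 1 cell. They also held 1.61-fold the UMIs of the reference of their cluster and library, and why they have no chain in the table was not tested.

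TCR entries without a cell in the cell table also held pairs. Among 946 of them with a TRB, 4.97% (3.67 to 6.55) carried 2 TRB, against 9.18% (8.55 to 9.84) of cells in the cell table, and among 689 with a TRA and 1 TRB, 10.2% (8.01 to 12.7) carried 2 TRA, against 12.03%.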

How the results depend on the processing

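The 22 values named here were recomputed under 168 alternatives, of which 120 left them within their counting error or, for counts, within 1.5 times and 48 moved them, and only values close to 0 (UMIs and genes of 2 TRA cells, genes after thinning) changed sign; among single genes, Tigit in pairs met in 1 cell was called lower against all reference cells (-0.59) and higher against those of unshared TRB (0.66). Alternatives without the largest TRB pair, with reference cells of unshared TRB, with each pair counted 1 time, shares by cluster without a library or the pair, the test over libraries, and all settings of the same-V share were chosen after seeing the data. Leaving out 1 library at a time gave 7.70% to 9.83% for the 2 TRB share (lowest without library 1), 10.9% to 12.9% for the 2 TRA share, 57.3% to 73.4%, 36.4% to 43.5% and 42.0% to 45.7% for TRB sharing of 2 TRB, 2 TRA and reference cells, 21.2% to 43.3% for both chains found, 17 to 33 recurring TRB pairs (17 without library 1, 22 without library 4), 19 to 32 recurring TRA pairs (19 without library 4), 67.5% to 90.1% for same-V recurring cells, 0.030 to 0.25 for the log2 UMI difference of recurring pairs (0.030 without library 1), and -0.0052 to 0.039 for genes per 2 TRA cell. Called genes numbered 2 to 7 for 2 TRB, 3 to 8 for 2 TRA and 11 to 21 for pairs met in 1 cell, with 7 and 21 without library 4 and 8 without library 2.

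Without the largest pair, the 2 TRB share was 7.38%, TRB sharing 60.3%, both chains found 20.4%, the same-V share of recurring cells 71.3% and their UMI difference 0.041; counting each pair 1 time gave 74.3%. TRB sharing by the first listed TRB was 60.2%. With 1 TRA only, log2 differences of 2 TRB cells were 0.30 for UMIs, 0.18 for genes and 0.40 for UMIs of pairs met in 1 cell. With 1 cell per clonotype they were 0.54 for UMIs and 0.35 for genes, and 0.038 and 0.040 in 2 TRA cells. Without cells holding macrophage or plasma cell UMIs before thinning, they were 0.30 for UMIs, 0.17 for genes, 0.46 for pairs met in 1 cell and 0.052 for recurring pairs. Reference cells of unshared TRB were too few to compare TIM-3+ Tex. Against them, UMI differences were 0.34 and, for recurring pairs, 0.070. Called genes then numbered 15, 16 and 7 for 2 TRB, 2 TRA and pairs met in 1 cell, against 3, 3 and 11. Thinning to 4000 UMIs gave 0.0091 for genes per 2 TRB cell, a minimum of 20 CPM called 9 genes for 2 TRA, and 50 CPM added called 4 for pairs met in 1 cell. The causes of these shifts were not tested. Classes were compared within each library, and a two-sided exact test over 4 libraries cannot reach less than p = 0.125. The number of molecules behind each TCR chain was not analysed here.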
